A study of Mus musculus with 12 samples.

Results

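Red cell and platelet transcripts were followed through RNA sequencing of regulatory T cells (Treg) taken from a venous clot, from the vein wall around it and from the spleen. The genes are 10, chosen by name: the 4 adult globin genes Hba-a1, Hba-a2, Hbb-bs and Hbb-bt, the erythroid enzyme gene Alas2, the platelet chemokine genes Pf4 and Ppbp, and the platelet receptor genes Itga2b, Gp9 and Gp1bb. All 10 have a row in each of the 12 libraries, out of 20850 genes that could be joined over the libraries. Of the 10, 7 passed the filter on low counts and were among the 11699 genes tested between tissues. Alas2, Gp9 and Gp1bb did not pass and are given by their reads.

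The cells came from DEREG mice, on the C57BL/6 background, whose transgene Tg(Foxp3-DTR/EGFP)23.2Spar drives a fusion of the diphtheria toxin receptor with EGFP under Foxp3 control. Every mouse carried the transgene and had its inferior vena cava ligated, a flow reduction model of deep vein thrombosis, and all tissues were taken at day 14, so no group comes from an unligated mouse. Live CD45+ CD4+ EGFP+ CD69+ cells were sorted from thrombus, vein wall and spleen, with 4 libraries a tissue. The labels give neither the age or sex of the mice nor whether a library came from 1 mouse or several, so a p-value here weighs a difference against the spread of these samples, part of which may be technical.

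Hemoglobin is a tetramer of alpha and beta chains that carries oxygen in red cells. Mature red cells have no nucleus, and their young form, the reticulocyte, still holds globin mRNA. Alas2 makes the rate-limiting enzyme of heme synthesis in red cell precursors. Platelets are also without a nucleus and carry mRNA from the megakaryocytes that shed them. Platelet factor 4, from Pf4, and the precursor of platelet basic protein, from Ppbp, are chemokines stored in their alpha granules. Itga2b encodes the alpha chain of the fibrinogen receptor, and Gp9 and Gp1bb encode subunits of the receptor for von Willebrand factor. The 10 genes are not part of the known Treg program, and both kinds of cell are abundant in blood and in venous clots.

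Libraries held 9719151 to 55386086 exon reads, of which 13.6% to 21.8% matched more than 1 place. The files fall into 3 sets with different gene models. Set 1 is thrombus 1 and spleen 1, set 2 is thrombus 2, vein wall 1 and spleen 2, and set 3 is the other 7 libraries. Spleen 3 and 4, and likewise vein wall 3 and 4, differed far less than any other pair of a tissue (mean chi-square per gene 3.96 and 2.56, against 96.8 to 355 in the other 16 pairs), so each pair was summed and counted as 1 sample. This leaves 4 thrombus, 3 vein wall and 3 spleen samples, named with 3-4 for a summed pair. The summed level of 12 Treg and T cell genes, Foxp3 and Cd4 among them, was 10900 to 16717 CPM in thrombus, 14636 to 16202 in vein wall and 11850 to 16922 in spleen. CPM is counts scaled to 1000000 by trimmed-mean (TMM) library sizes over the joined genes, and RPM, used for single libraries, is exon reads scaled to 1000000 exon reads of the library. The library protocol marks neither strand nor single molecules, so intervals and floors below cover counting error only. A floor of 3 reads, the most that a count of 0 allows, is 0.0542 to 0.309 RPM, depending on the library.

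The globin genes come in near-identical pairs, which decides how far their reads can be told apart. Over 429 coding bases Hba-a1 and Hba-a2 differ at 1, C381T, counted from the first base of the start codon, and the longest stretch they share is 380 bases. Over 444 coding bases Hbb-bs and Hbb-bt, the beta genes of the haplotype that C57BL/6 mice carry, also differ at 1, C417T, with a shared stretch of 416. The windows below, of 90 bases each, from the GENCODE M21 transcripts on GRCm38, show these positions with the differing base in capitals. A read that covers neither the capital nor a noncoding stretch cannot be assigned to 1 gene of the pair.
Hba-a1, coding bases 336 to 425, chr11:32284298-32284387, plus strand: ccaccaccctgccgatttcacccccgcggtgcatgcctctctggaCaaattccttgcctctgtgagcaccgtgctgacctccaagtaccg
Hba-a2, coding bases 336 to 425, chr11:32297115-32297204, plus strand: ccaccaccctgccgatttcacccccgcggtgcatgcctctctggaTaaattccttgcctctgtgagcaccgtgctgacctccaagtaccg
Hbb-bs, coding bases 355 to 444, chr7:103826665-103826754, minus strand: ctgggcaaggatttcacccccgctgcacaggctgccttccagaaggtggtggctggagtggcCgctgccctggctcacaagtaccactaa
Hbb-bt, coding bases 355 to 444, chr7:103812656-103812745, minus strand: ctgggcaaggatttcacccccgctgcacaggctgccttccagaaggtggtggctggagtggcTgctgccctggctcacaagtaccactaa

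The stretch just before each gene's start shows which promoters carry like letters. The sequences below are the 120 bases upstream of the start in RefSeq on GRCm38.p6, given for the 3 distinct globin promoters, for Alas2 and for Pf4. Capitals mark 4 short words on either strand: TATAA for the TATA box, CCAAT for the CCAAT box, CACCC for the box that factors of the Klf family bind, and GATAA for the site of Gata factors. Some matches adjoin or overlap, as in Hbb-bt and Alas2. Such words are common. Of 27025 promoters searched over the same length, 12.4% hold TATAA, 22.1% hold CCAAT, 31.3% hold CACCC and 10.7% hold GATAA. Of the 10 genes, 5 hold TATAA, 5 hold CCAAT, 7 hold CACCC and 2 hold GATAA. The 300-base promoter windows of Hba-a1 and Hba-a2 share a run of 297 bases, while the longest run shared by those of Hbb-bs and Hbb-bt is 14. All 4 globin promoters hold the TATA, CCAAT and CACCC words, and none holds the GATA word in these 120 bases.
Hba-a1, chr11:32283552-32283671, plus strand: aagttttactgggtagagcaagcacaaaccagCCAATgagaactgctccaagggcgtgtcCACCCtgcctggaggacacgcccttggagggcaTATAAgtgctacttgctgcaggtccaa
Hbb-bs, chr7:103827929-103828048, minus strand: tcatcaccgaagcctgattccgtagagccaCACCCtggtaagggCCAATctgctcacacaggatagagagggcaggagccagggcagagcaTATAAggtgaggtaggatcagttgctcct
Hbb-bt, chr7:103813924-103814043, minus strand: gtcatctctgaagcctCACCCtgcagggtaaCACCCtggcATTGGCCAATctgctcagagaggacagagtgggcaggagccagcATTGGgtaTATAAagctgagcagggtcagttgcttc
Alas2, chrX:150547297-150547416, plus strand: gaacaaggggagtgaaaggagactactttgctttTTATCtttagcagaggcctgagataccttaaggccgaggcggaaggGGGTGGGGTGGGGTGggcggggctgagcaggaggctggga
Pf4, chr5:90772315-90772434, plus strand: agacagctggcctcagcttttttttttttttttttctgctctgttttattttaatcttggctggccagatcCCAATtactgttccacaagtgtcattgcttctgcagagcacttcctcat

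The alpha globin genes lie close together on chromosome 11, Hba-a1 at chr11:32283511-32284465 and Hba-a2 at chr11:32296489-32297298, both on the plus strand. The beta globin genes Hbb-bs, chr7:103826534-103828096, and Hbb-bt, chr7:103812524-103813996, lie on the minus strand of chromosome 7. Pf4, chr5:90772435-90773383, and Ppbp, chr5:90768518-90770063, are neighbours on the plus strand of chromosome 5. Itga2b is at chr11:102453297-102470122 on the minus strand and Gp9 at chr6:87778072-87779768 on the plus strand. Alas2, chrX:150547375-150570638, overlaps Apex2 on the opposite strand, and Gp1bb, chr16:18620319-18622403, overlaps Sept5 on the same strand, so that reads in the overlaps cannot be told apart. These spans, on GRCm38, are those of sets 1 and 3, and the gene models of set 2 differ in part.

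Globin transcripts were found in all 12 libraries, and their level differed between libraries of 1 tissue as widely as between tissues. Summed over the 4 genes, thrombus 1 to 4 had 7.37, 1658, 8.44 and 1545 RPM. Vein wall 1 to 4 had 2.10, 3.29, 49.0 and 42.6 RPM, and spleen 1 to 4 had 1993, 54.7, 348 and 327. Thrombus libraries therefore fell into a pair with high and a pair with low levels, and vein wall libraries were low in all 4. In total exon reads, spleen libraries were all higher than any vein wall library, by a narrow margin between spleen 2 and vein wall 3. Over uniquely matched reads this order did not hold, and spleen 2 lay below vein wall 3 and 4. Such reads made up 20.3% of globin reads in spleen 2, 41.9% in vein wall 3 and 39.6% in vein wall 4. Spleen 1, which had the most, gave 0.199% of its exon reads to globin (95% Wilson interval 0.197% to 0.202%). In each library of a summed pair the level was close to that of the other.

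In CPM, the summed globin level was 6.82, 2043, 8.67 and 1554 in thrombus 1 to 4, against 2.47 in vein wall 1, 3.71 in vein wall 2 and 50.8 in vein wall 3-4, and 1814 in spleen 1, 59.5 in spleen 2 and 341 in spleen 3-4. The thrombus samples averaged 903 ± 1053 CPM (SD, n = 4), the vein wall samples 19.0 ± 27.6 (n = 3) and the spleen samples 738 ± 942 (n = 3). The SD exceeds the mean in each tissue. In this bulk measurement, fewer cells of a type and less RNA per cell cannot be told apart.

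**Figure D1:**
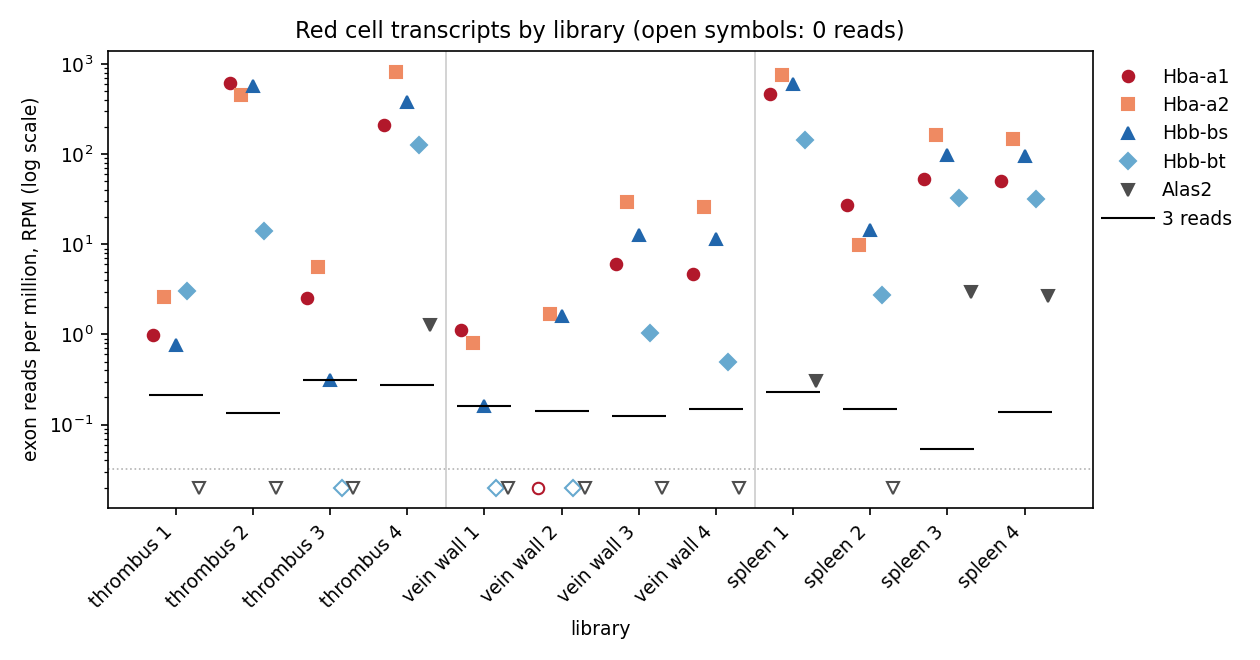
Levels in RPM (log scale) of the 4 globin genes and Alas2 in each library, with thrombus on the left, vein wall in the middle and spleen on the right. Black bars give the level of 3 reads and open symbols stand for 0 reads. Summed over the globin genes, thrombus 2 and 4 with 1658 and 1545 RPM come near spleen 1 with 1993, though Hbb-bt is at 14.0 RPM in thrombus 2 and 145 in spleen 1. Thrombus 1 and 3 lie within the range of the vein wall libraries in that sum, and Alas2 has reads in thrombus 4 and in 3 spleen libraries.

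Hba-a1, an alpha globin gene, had 14, 13521, 25 and 2308 exon reads in thrombus 1 to 4, 21, 0, 145 and 94 in vein wall 1 to 4, and 6119, 557, 2956 and 1112 in spleen 1 to 4. Every vein wall sample lay below every spleen sample, and the thrombus samples spanned both. Hba-a2, its partner, had 37, 10140, 54 and 8990 reads in thrombus, 15, 35, 702 and 522 in vein wall, and 9946, 202, 9060 and 3229 in spleen. For Hba-a2 vein wall and spleen overlapped, since vein wall 3-4 had 30.5 CPM and spleen 2 had 10.8.

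Hbb-bs, the beta globin gene with more reads in most libraries, had 11, 12566, 3 and 4081 exon reads in thrombus 1 to 4, 3, 34, 307 and 232 in vein wall, and 7920, 295, 5432 and 2086 in spleen. Hbb-bt, the other adult beta globin gene, had 43, 308, 0 and 1388 reads in thrombus, 0, 0, 25 and 10 in vein wall, and 1881, 56, 1808 and 693 in spleen. For both genes the vein wall samples lay below all spleen samples in total exon reads, and thrombus overlapped with both tissues. Over uniquely matched reads, vein wall and spleen overlapped for Hbb-bs. Spleen 2 had 104 unique Hbb-bs reads of 17516445 in the library. Vein wall 3 had 213 of 18839733 and vein wall 4 had 163 of 15792292.

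In the fit over all genes, the 4 globin genes had large negative fold changes in vein wall, with SEs too wide for a call. In vein wall against spleen, the log2 fold change was -6.08 ± 2.87 (SE) for Hba-a1, -4.69 ± 2.67 for Hba-a2, -5.40 ± 2.98 for Hbb-bs and -7.35 ± 2.96 for Hbb-bt. Adjusted p was 0.917, 0.959, 0.953 and 0.882 in that order (edgeR quasi-likelihood test, Benjamini-Hochberg over 11699 genes). No globin gene was called, where 0.111% of all genes tested were called. Unadjusted p was under 0.05 for 638 of the 11699 genes and, of the 7 members, for Hbb-bt alone, at 0.0400 (edgeR). DESeq2 called 193 of 12736 genes here and again no member. In total exon reads, Hba-a1, Hbb-bs and Hbb-bt are 3 of the 7 members tested whose vein wall and spleen samples do not overlap. The share of all genes tested is 13.3%. Over uniquely matched reads Hbb-bs overlapped, and the share of all genes was not computed on those reads. Leaving out spleen 1 brought Hba-a1 to -4.04, Hba-a2 to -2.92, Hbb-bs to -3.43 and Hbb-bt to -5.74, and leaving out vein wall 3-4 brought Hbb-bt, then at 0 in all of vein wall, to -13.26. The difference held its direction within both sets that hold the tissues: the log2 of summed globin CPM plus 1 was lower in vein wall, with a difference of -4.12 in set 2 and -4.46 in set 3. Set 2 has 1 sample of each tissue, and set 3 has 2 vein wall samples and 1 spleen sample.

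In thrombus against vein wall the fitted changes were of like size, with the globin genes higher in thrombus. Log2 fold changes were 6.60 ± 2.90 for Hba-a1, 4.97 ± 2.66 for Hba-a2, 5.69 ± 2.98 for Hbb-bs and 6.77 ± 2.86 for Hbb-bt, each with an adjusted p of 1.00 (edgeR). With edgeR no gene at all was called in this comparison, a share of 0% of the genes tested, while 341 had an unadjusted p under 0.05. Hbb-bt, at 0.0475, and Pf4 were among those. DESeq2 called 50 of 13093 genes in this comparison, none of them a member. The globin levels of thrombus and vein wall overlapped for each of the 4 genes, because vein wall 3-4 exceeded thrombus 1 in 3 of them and thrombus 3 in all 4. Within set 2 the difference of the summed level was 9.20 on the log2 scale, from 1 sample each, and within set 3 it was 2.97.

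Thrombus and spleen showed no common direction. Log2 fold changes of thrombus against spleen were 0.51 ± 2.16 for Hba-a1, 0.28 ± 2.15 for Hba-a2, 0.28 ± 2.32 for Hbb-bs and -0.58 ± 2.06 for Hbb-bt, each with an adjusted p of 1.00 (edgeR), and none of the 7 members was called, where 0.145% of all genes were. DESeq2 called 146 of 12736 genes and no member. With edgeR 1 member, Pf4, had an unadjusted p under 0.05, beside 484 of all 11699 genes tested. Within sets the direction of the summed globin level changed: thrombus minus spleen was -7.86 on the log2 scale in set 1, 5.08 in set 2 and -1.48 in set 3. No member separated the tissues without overlap, against 4.98% of all genes. Leaving out thrombus 2 turned Hba-a1 to -1.19 and Hbb-bs to -0.78, and leaving out spleen 1 turned Hbb-bt to 1.06.

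**Figure D2:**
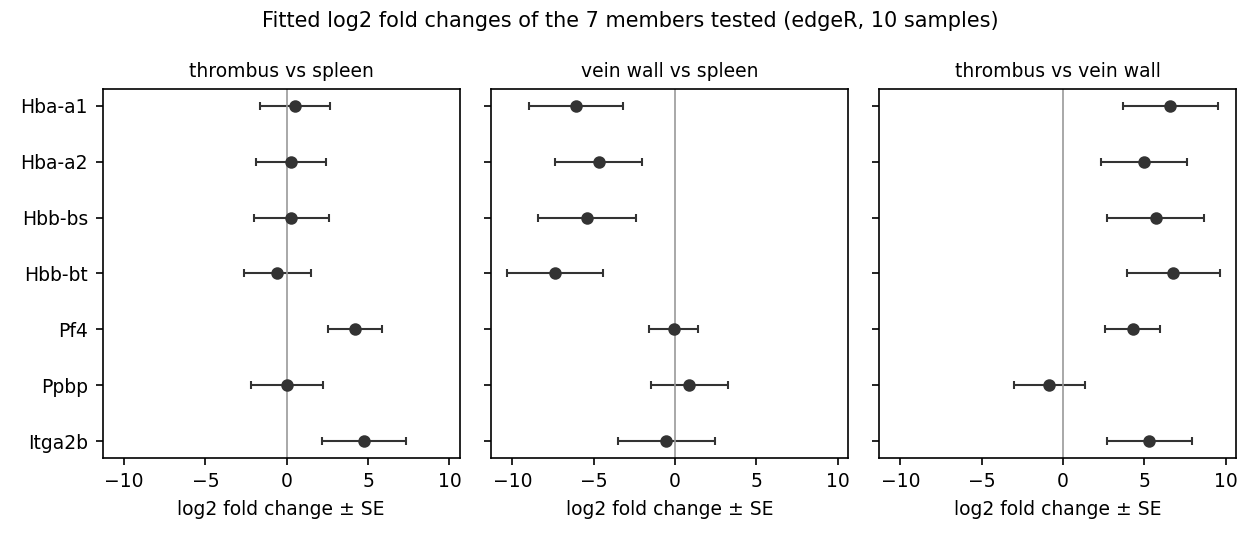
Log2 fold changes with their SE for the 7 members tested, in thrombus against spleen, vein wall against spleen and thrombus against vein wall (edgeR, 4 thrombus, 3 vein wall and 3 spleen samples). The 4 globin genes lie below 0 in vein wall against spleen and above 0 in thrombus against vein wall, with SEs of 2.66 to 2.98, and Pf4 lies above 0 in both thrombus comparisons.

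Most globin reads could not be placed on 1 gene. Uniquely matched reads made up 14.6% to 39.1% of globin exon reads in the 4 libraries with 105 of them or fewer, and 20.0% to 41.9% in the others, while every read of Pf4 and Ppbp matched uniquely. Reads across exon junctions made up 8.57% to 28.0% of globin exon reads, so spliced RNA was counted in every library. Intron reads of the 4 genes numbered 0, 5, 9 and 90 in thrombus 1 to 4, against 0, 0, 2 and 0 in vein wall and 11, 2, 16 and 11 in spleen.

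Alpha exceeded beta globin in each of the 8 libraries with 858 globin reads or more. Per kilobase of exon, the alpha genes together had 2.09 times the reads of the beta genes in thrombus 2 and 2.54 times in thrombus 4. The ratio was 3.16 and 3.17 in vein wall 3 and 4, and 1.73, 2.46, 2.02 and 1.90 in spleen 1 to 4. In these libraries it stayed between 1.73 and 3.17 while the globin level itself ranged from 42.6 to 1993 RPM.

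The split between partner genes was less even. Hba-a2 took 42.9% of alpha reads in thrombus 2 (95% Wilson interval 42.2% to 43.5%) and 79.6% in thrombus 4 (78.8% to 80.3%). It took 82.9% and 84.7% in vein wall 3 and 4, and 61.9%, 26.6%, 75.4% and 74.4% in spleen 1 to 4. The low shares among these libraries, in thrombus 2 and spleen 2, are both from set 2, whose exon lengths for Hba-a1 and Hba-a2 are 559 and 563 bases, against 699 and 554 in set 3 and 812 and 667 in set 1. Over uniquely matched reads the share was 44.0% in thrombus 2 and 63.1% in thrombus 4, 77.6% and 78.1% in vein wall 3 and 4, and 57.6%, 28.6%, 59.9% and 59.6% in spleen 1 to 4. Of the libraries with few globin reads, vein wall 1, also of set 2, had 41.7% of its 36 alpha reads on Hba-a2 (27.1% to 57.8%), and thrombus 3 had 68.4% of all its alpha reads and 33.3% of the unique ones (12.1% to 64.6%). The part of the gene models in these differences was not tested.

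For the beta pair, thrombus 2 differed from spleen 2 of the same set. Hbb-bt took 2.39% of beta reads in thrombus 2 (2.14% to 2.67%, of 12874 reads) and 25.4% in thrombus 4. It took 7.53% and 4.13% in vein wall 3 and 4, and 19.2%, 16.0%, 25.0% and 24.9% in spleen 1 to 4. Within set 2, and over uniquely matched reads, the share was 2.23% in thrombus 2 (1.83% to 2.71%) and 18.1% in spleen 2 (12.4% to 25.7%), intervals that do not overlap. Thrombus 1, with 54 beta reads, had 79.6% of them on Hbb-bt (67.1% to 88.2%), the only library where Hbb-bt exceeded Hbb-bs. These shares describe single libraries and were not compared over tissues.

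**Figure D3:**
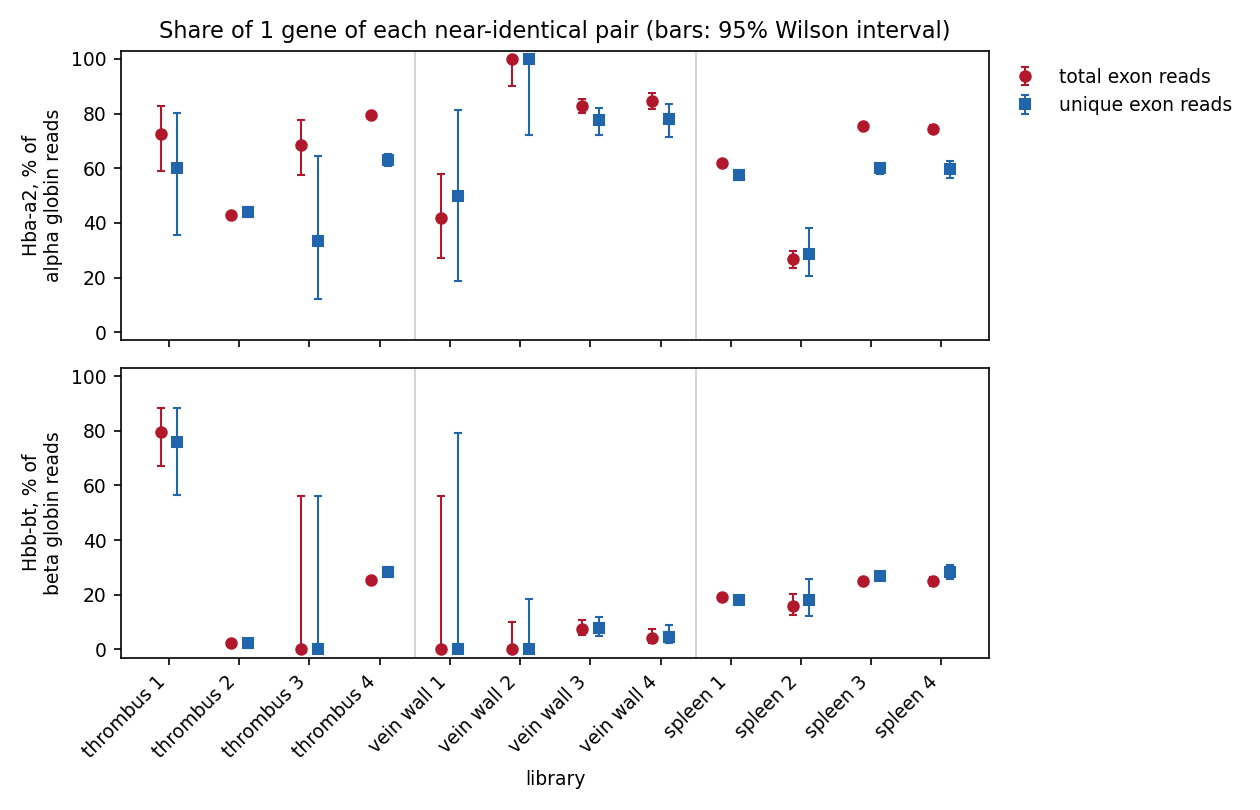
Percent of alpha globin reads on Hba-a2 (top) and of beta globin reads on Hbb-bt (bottom) in each library, from total exon reads (circles) and uniquely matched exon reads (squares), with 95% Wilson intervals. Of the 8 libraries with 858 globin reads or more, Hba-a2 holds the smaller share in thrombus 2 and spleen 2. Over all 12 libraries, Hbb-bt stays at or below 28.2% except in thrombus 1, where it reaches 79.6% of 54 reads.

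Alas2 had few reads, and most were in spleen. Thrombus 1 to 4 had 0, 0, 0 and 14 exon reads, none of the 14 unique, vein wall had 0 in all 4 libraries, and spleen 1 to 4 had 4, 0, 165 and 58. Of the spleen 3 and 4 reads, 32 and 16 were unique. Over all spleen libraries this was 227 reads, 2.06 CPM, and vein wall was at least 51.2-fold lower against a floor of 3 reads over its 4 libraries. This limit rests on spleen 3-4, which holds 223 of the 227 reads: without that sample, it was 3.02-fold, and without vein wall 3-4 it was 23.6-fold. The limit counts all reads, most of which were not unique in spleen, and none was computed on unique reads. Alas2 did not pass the filter on low counts. With no filter its log2 fold change in vein wall against spleen was -7.65 ± 3.29 (adjusted p = 0.671, edgeR), and with DESeq2 it was -7.00 ± 3.90 (adjusted p = 0.623), so no call was made. The gene on the other strand, Apex2, which makes a DNA repair nuclease, had 42 to 309 reads in thrombus, 41 to 716 in vein wall and 288 to 1396 in spleen. That was 38.5, 9.96, 1.75 and 2.04 RPM in vein wall 1 to 4, and 23.6, 14.2, 25.2 and 24.4 in spleen 1 to 4. The part of Apex2 reads in the Alas2 counts was not tested.

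Other red cell genes were low in all tissues, and no call was made on them. Of a list of 25 further erythroid genes, 24 are in the joined files and 5 passed the filter, with none called in any comparison. Their median log2 fold change was -0.39 in thrombus against spleen, -0.72 in vein wall against spleen and 0.30 in thrombus against vein wall, beside 0.03, -0.01 and 0.04 over all genes tested. The list sum was 29.7 to 66.8 CPM in thrombus, 17.0 to 41.0 in vein wall and 37.8 to 42.4 in spleen, so thrombus 2, with 2043 CPM of globin, had the lowest list sum of its tissue, 29.7. Nearly all of it was Gata1, at 16.5 CPM, Slc25a37, at 7.60, and Tmod1, at 5.54, while 20 of the 24 genes had 0 reads. These genes made most of the sum in the other samples too, so the sum says little about the rest of the list. Slc4a1, the anion exchanger of the red cell membrane, had 0 reads in every thrombus sample, 2 in vein wall 3-4 and 0 in the other vein wall samples, and 10, 1 and 3 in spleen. The embryonic globin genes Hbb-bh1, Hbb-y and Hba-x had 0 reads in all samples, as did the blood group gene Kel.

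The list genes with the highest levels are Gata1, Slc25a37 and Tmod1, and none was called. Gata1, a transcription factor of red cell and platelet precursors, averaged 18.6 ± 17.6 CPM in thrombus, 15.1 ± 7.81 in vein wall and 10.9 ± 3.13 in spleen. Slc25a37, a mitochondrial iron importer, averaged 20.0 ± 11.01 CPM in thrombus, 7.77 ± 3.44 in vein wall and 14.8 ± 4.53 in spleen. Tmod1, an actin-capping protein of the red cell skeleton, averaged 3.27 ± 2.14, 4.13 ± 5.06 and 4.30 ± 3.40 CPM in thrombus, vein wall and spleen.

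The 8 enzymes of heme synthesis other than Alas2, which every cell uses, were present in all tissues, and none of the 8 was called. Their median log2 fold change was -0.21 in thrombus against spleen, -0.20 in vein wall against spleen and -0.01 in thrombus against vein wall. The list sum was 335 to 427 CPM in thrombus, 284 to 438 in vein wall and 381 to 452 in spleen. Alad, the second enzyme of the pathway, averaged 76.9 ± 16.7 CPM in thrombus, 88.9 ± 32.7 in vein wall and 97.0 ± 10.2 in spleen. Uros averaged 51.2 ± 27.2, 56.4 ± 33.6 and 49.1 ± 11.8 CPM and Urod 87.3 ± 16.0, 91.6 ± 36.8 and 83.2 ± 9.25 CPM in thrombus, vein wall and spleen, levels that differed by less than the spread between samples.

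Of the platelet genes, Pf4 had the most reads, with its highest levels in thrombus. Pf4 had 45, 837, 51 and 13 exon reads in thrombus 1 to 4, 19, 0, 17 and 22 in vein wall 1 to 4, and 7, 2, 97 and 31 in spleen 1 to 4. That is 2.92, 46.8, 5.39 and 1.21 CPM in thrombus 1 to 4, 1.20, 0 and 0.973 CPM in vein wall 1, 2 and 3-4, and 0.491, 0.107 and 1.66 CPM in spleen 1, 2 and 3-4. All thrombus samples lay above all vein wall samples, though the closest pair, thrombus 4 and vein wall 1, is separated by less than counting error, at 13 and 19 reads. Thrombus 4 lay below spleen 3-4, so thrombus and spleen overlapped.

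The log2 fold change of Pf4 was 4.19 ± 1.66 in thrombus against spleen and 4.27 ± 1.67 in thrombus against vein wall, each with an adjusted p of 1.00 (edgeR), and unadjusted p of 0.0209 and 0.0196. In vein wall against spleen it was -0.08 ± 1.50. Pf4 is 1 of the 7 members tested whose thrombus and vein wall samples do not overlap, and the share of all genes is 3.83%. Without thrombus 2 the change was 2.08 against spleen and 2.12 against vein wall (adjusted p = 0.994 and 0.820, edgeR). Within sets, thrombus exceeded spleen by 1.40 in set 1, 5.43 in set 2 and 0.50 in set 3 on the log2(CPM + 1) scale, and vein wall by 4.44 in set 2 and 1.42 in set 3. These differences rest on 1 sample of a tissue per set, or 2 for thrombus and for vein wall in set 3.

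Thrombus 2, where Pf4 was highest, also had the highest sum of a macrophage and monocyte list, most of it from Lyz2. The summed level of 14 macrophage and monocyte genes was 125, 1858, 87.7 and 98.3 CPM in thrombus 1 to 4, against 29.1 to 336 in vein wall and 74.1 to 306 in spleen. The lysozyme gene Lyz2 of this list had 24135 reads in thrombus 2, against 379 to 581 in the other thrombus samples, 464 to 3749 in vein wall and 1 to 8346 in spleen. Lyz2 alone was 1350 of the 1858 CPM in thrombus 2. Adgre1, Cd68, C1qa, C1qb, Cd14, Lyve1 and Apoe were also highest there. Csf1r, Mrc1, C1qc, Fcgr1, Mertk and Cd163 were not. In thrombus 2 Mrc1 had 0.112 CPM, against 16.9 in vein wall 2, and C1qc had 13.6, against 28.9 in spleen 2. The sum of a list of 10 dendritic cell genes was 10952 CPM in thrombus 2 and 1617 to 2924 in the other thrombus samples, against 2289 to 11953 in vein wall and 1160 to 2275 in spleen. Flt3, Xcr1, Clec9a and Zbtb46 gave only 7.38, 0, 4.31 and 1.06 CPM of it in thrombus 2. The other list genes include the class II presentation genes H2-Aa, H2-Ab1 and Cd74. Flt3 and Clec9a were highest in thrombus 2, and Xcr1 and Zbtb46 in thrombus 3. The B and plasma cell list was also highest in vein wall 1 and thrombus 2, at 1321 and 900 CPM. Vein wall 1, with 11953 CPM of the dendritic cell list, had 1.20 CPM of Pf4. Pf4 is also known from some macrophages, and the part of these cells in its level was not tested.

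**Figure D4:**
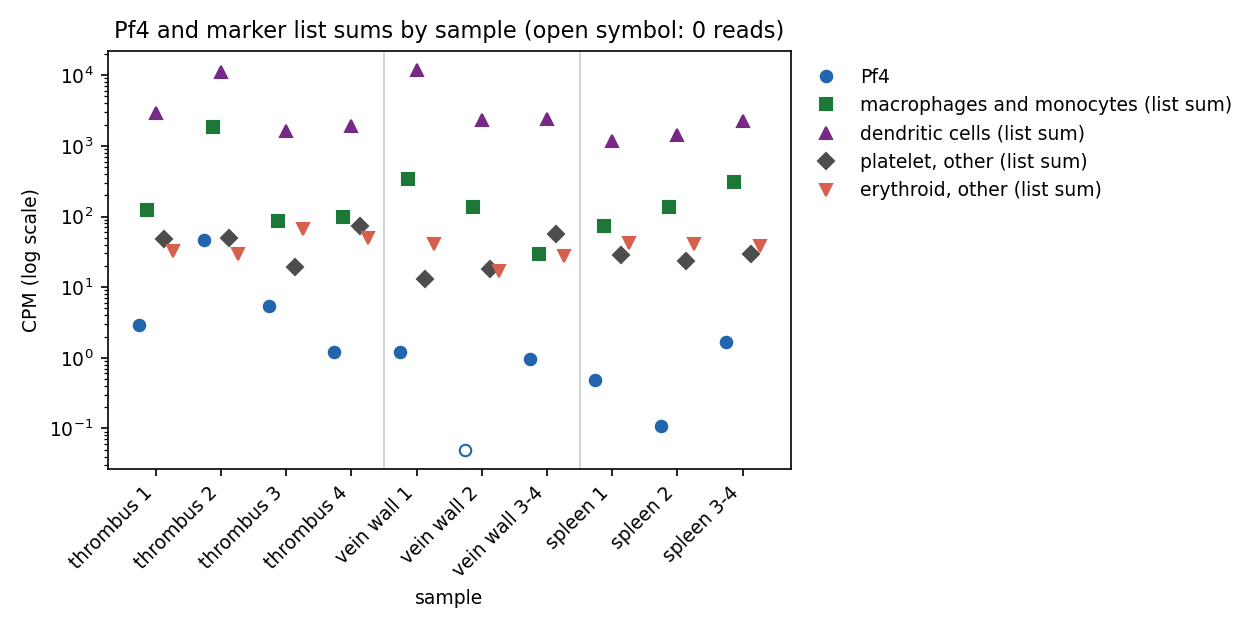
Pf4 and the summed level of 4 marker lists in CPM (log scale) for each sample, with thrombus on the left, vein wall in the middle and spleen on the right, and an open symbol for 0 reads. In thrombus 2 Pf4 reaches 46.8 CPM and the macrophage and monocyte list 1858 CPM, while the lists of further platelet and erythroid genes stay between 13.1 and 73.1 CPM in all samples. Most of the macrophage and monocyte sum in thrombus 2 is Lyz2, and most of the erythroid sum is Gata1, Slc25a37 and Tmod1.

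Ppbp, the neighbour of Pf4, had its highest levels in other samples. Ppbp had 14, 48, 8 and 0 exon reads in thrombus 1 to 4, 11, 0, 108 and 105 in vein wall 1 to 4, and 47, 0, 0 and 0 in spleen 1 to 4. The highest levels were in the near-duplicate libraries vein wall 3 and 4, with 4.49 and 5.22 RPM, and in spleen 1, with 3.62. None of the Ppbp exon reads in vein wall 3 and 4 crossed a junction, and 4 and 17 further reads lay in its introns there, whereas 10 of 47 reads in spleen 1 and 10 of 48 in thrombus 2 crossed one. Log2 fold changes were 0.04 ± 2.20 in thrombus against spleen, 0.88 ± 2.37 in vein wall against spleen and -0.85 ± 2.18 in thrombus against vein wall. Adjusted p was 1.00, 0.990 and 1.00 (edgeR), and single samples decided these values. Without vein wall 3-4 the change was -1.64 in vein wall against spleen and 1.67 in thrombus against vein wall, and without spleen 1, which leaves spleen at 0, the fitted changes against spleen were 7.80 in thrombus and 8.65 in vein wall.

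Itga2b, for the fibrinogen receptor chain, had nearly all its exon reads in thrombus, at very low levels. Thrombus 1 to 4 had 16, 0, 6 and 9 exon reads, vein wall 3 had 1 and the other vein wall libraries 0, and spleen 1 had 1 and the other spleen libraries 0. Of the thrombus reads, 3, 2 and 5 crossed junctions in thrombus 1, 3 and 4. Pooled over libraries this was 0.579 CPM in thrombus against 0.00908 in spleen, a ratio of 63.8 with a 95% counting interval of 10.6 to 2600. Against 0.0134 CPM in vein wall the ratio was 43.1 (7.19 to 1759). Without spleen 3-4 the ratio to spleen was 19.1, and without thrombus 2 the ratios were 95.8 to spleen and 64.8 to vein wall. Without spleen 1, which holds the 1 spleen read, thrombus was at least 18.5-fold higher than a floor of 3 reads, and at least 6.64-fold higher without vein wall 3-4. Intron reads, however, were about as many as exon reads in thrombus and more in vein wall: 11, 0, 18 and 4 in thrombus, 0, 2, 6 and 8 in vein wall, and 2, 0, 1 and 0 in spleen. The fitted log2 fold change was 4.77 ± 2.58 in thrombus against spleen, -0.53 ± 2.99 in vein wall against spleen and 5.30 ± 2.61 in thrombus against vein wall, with an adjusted p of 1.00, 0.997 and 1.00 (edgeR).

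Gp9 showed reads in the same 3 thrombus samples. It had 6, 0, 1 and 13 reads in thrombus 1 to 4, all unique, 1 read in vein wall 4 and 0 in the other vein wall libraries, and 0 in every spleen library. Pooled, thrombus had 0.374 CPM, at least 13.7-fold higher than a floor of 3 reads over the spleen libraries. Against 1 read in vein wall the ratio was 27.8 (95% counting interval 4.45 to 1154). Single samples decide these values, since 13 of the 20 thrombus reads are from thrombus 4 and thrombus 2 had 0. Without thrombus 4 the limit against spleen was 6.01 and the ratio to vein wall 12.2, without thrombus 2 they were 20.6 and 41.8, and without spleen 3-4 the limit was 4.10. Without vein wall 3-4, vein wall had no read and thrombus was at least 4.29-fold higher than the floor. Gp9 did not pass the filter on low counts. With no filter its log2 fold change was 6.33 ± 2.80 in thrombus against spleen and 4.71 ± 2.74 in thrombus against vein wall (adjusted p = 0.597 and 0.782, edgeR), and with DESeq2 it was 5.97 ± 3.24 and 4.82 ± 3.23 (adjusted p = 0.719 and 0.941).

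Gp1bb gave no usable level. It had 5, 11, 0 and 0 reads in thrombus 1 to 4, 3, 0, 0 and 0 in vein wall, and 2, 20, 0 and 0 in spleen. Only the 5 reads of thrombus 1 matched uniquely. Sept5, a septin gene that overlaps it on the same strand, had 25, 0, 1 and 26 reads in thrombus, 0 in all vein wall libraries, and 22, 30, 25 and 6 in spleen.

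**Figure D5:**
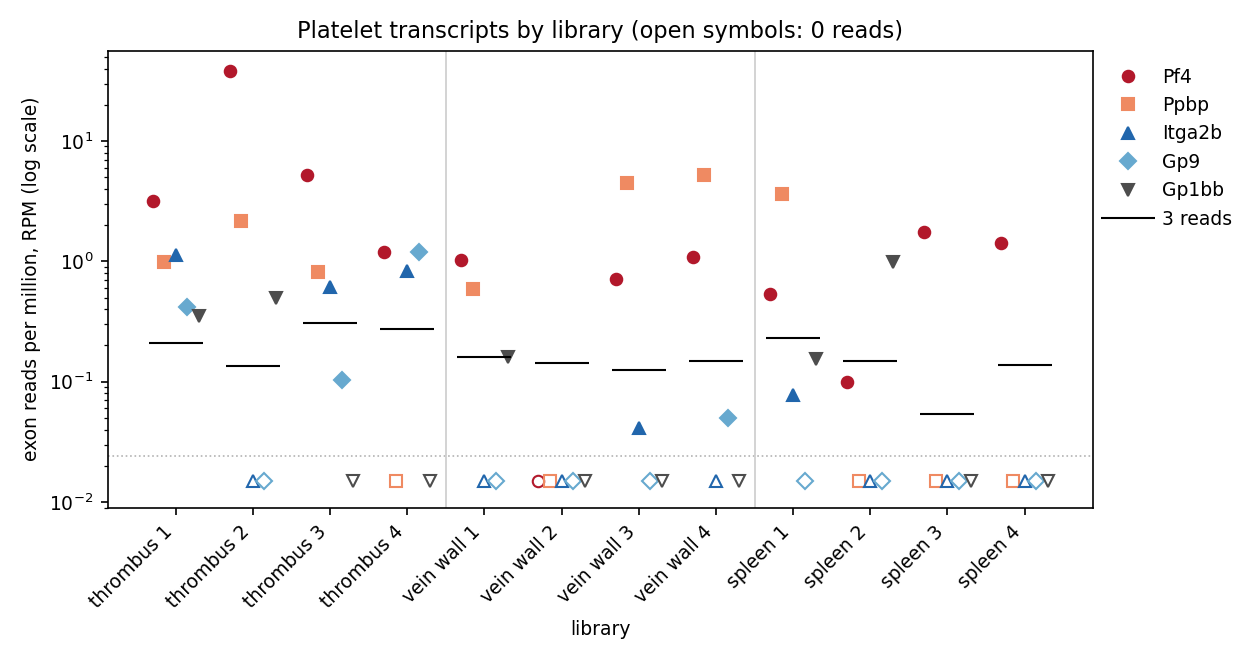
Levels in RPM (log scale) of the 5 platelet genes in each library, with thrombus on the left, vein wall in the middle and spleen on the right, black bars at the level of 3 reads and open symbols for 0 reads. Pf4 is detected in 11 of 12 libraries and peaks at 38.0 RPM in thrombus 2, Ppbp is highest in vein wall 3 and 4, and Itga2b and Gp9 exceed 3 reads in thrombus libraries alone.

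Together the 5 platelet genes, most of whose reads are Pf4 and Ppbp, came to 5.58, 50.1, 6.98 and 3.24 CPM in thrombus 1 to 4, 2.09, 0 and 6.33 CPM in vein wall 1, 2 and 3-4, and 4.00, 1.18 and 1.66 CPM in spleen 1, 2 and 3-4. The globin and platelet levels did not rank the thrombus samples alike: thrombus 2 was highest in both, thrombus 4 had 1554 CPM of globin with the lowest sum of these 5 genes, and thrombus 1 and 3 had under 10 CPM of globin with 4 or more of the 5 platelet genes detected. Vein wall 2 had no read of these 5 genes. Without Gp1bb the sum was 0.107 CPM in spleen 2, and in every other sample it changed by less than 1 CPM.

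The wider platelet list showed no call. Of 24 further platelet genes, 10 were tested and none was called in any comparison, with median log2 fold changes of 1.05 in thrombus against spleen, 0.57 in vein wall against spleen and 0.66 in thrombus against vein wall. The list sum was 47.8, 49.0, 19.6 and 73.1 CPM in thrombus 1 to 4, against 13.1 to 56.5 in vein wall and 23.8 to 29.4 in spleen. The wider list thus ranks thrombus 4 highest, where the sum of the 5 genes ranks it lowest of its tissue. The defining genes differed: Gp5, a platelet glycoprotein, had 1 read in thrombus 1 and none elsewhere, and Tubb1, the platelet beta tubulin, had 21 reads in spleen 1 and none elsewhere. Gp1ba, which encodes the partner chain of Gp1bb, had 1, 0, 0 and 165 reads in thrombus 1 to 4, 0, 0 and 5 in vein wall, and 5, 1 and 96 in spleen. Nfe2, a transcription factor of megakaryocytes, had 0, 0, 5 and 106 reads in thrombus 1 to 4, 4, 0 and 2 in vein wall, and 8, 0 and 214 in spleen. Clec1b, a platelet receptor, had 4, 0, 0 and 2 reads in thrombus, none in vein wall, and 13, 0 and 203 in spleen. Itgb3, the beta chain that pairs with Itga2b and is also found in other cells, averaged 15.1 ± 13.2 CPM in thrombus, 6.42 ± 1.08 in vein wall and 5.78 ± 4.98 in spleen. The thrombin receptor gene F2rl2 averaged 3.19 ± 3.46 CPM in thrombus, 4.30 ± 7.44 in vein wall and 6.70 ± 7.05 in spleen. F13a1, for a clotting factor subunit that macrophages also make, averaged 4.81 ± 3.46, 9.83 ± 11.5 and 2.97 ± 1.15 CPM in thrombus, vein wall and spleen.

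Of the markers of other cell types, 1 gene was called: Try4, a pancreatic trypsinogen, with a log2 fold change of 10.89 ± 1.67 in thrombus against spleen (adjusted p = 0.00553) and 10.03 ± 1.64 in vein wall against spleen (adjusted p = 0.0131, edgeR). Summed neutrophil genes stayed at 0.0559 to 8.50 CPM in thrombus, 0.380 to 3.29 in vein wall and 0.0647 to 5.15 in spleen. Summed fibroblast genes were 6.03 to 20.6 CPM in thrombus, 13.2 to 63.0 in vein wall and 0.140 to 2.90 in spleen. Summed endothelial genes were 55.3 to 65.3 CPM in thrombus, 44.4 to 50.5 in vein wall and 23.4 to 56.7 in spleen, nearly all from Pecam1, which leukocytes and platelets also express. The part of other cell types in the red cell and platelet levels was not tested.

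Over the 7 members tested, the median log2 fold change was 0.28 in thrombus against spleen with 6 above 0, -4.69 in vein wall against spleen with 1 above 0, and 5.30 in thrombus against vein wall with 6 above 0. Over all genes tested the medians were 0.03, -0.01 and 0.04. The globin pairs share reads, so the members are not independent of each other, and the comparisons share samples. On simulated counts for thrombus against spleen, the same fit recovered 24 of 100 genes changed by 2 on the log2 scale and 42 of 100 changed by 3, with 1 false call among 11699 genes. A member missing the threshold therefore does not show that its level was alike between tissues.

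Genes most like the summed globins over the 10 samples were Ifit3, an interferon-induced gene, with a Pearson r of 0.93, Lrsam1 (0.84), Ap3d1 (0.82), Smug1 (0.79) and Shf (0.79), on log2(CPM + 1). Ifit3 had 8.44, 59.8, 11.6 and 49.9 CPM in thrombus 1 to 4, 6.46, 8.43 and 27.9 in vein wall, and 35.4, 25.4 and 59.5 in spleen. Most like Pf4 were Lzts3 (0.96), Ceacam1 (0.95), Dpp10 (0.94), Hp (0.92) and Slf1 (0.91). Each of these 5 was highest in thrombus 2, as Pf4 was. These values were picked as the highest of 11699 genes over 10 samples that share libraries and sets, and they are given as a description.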

How the data were processed

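RNA of CD69+ Foxp3-EGFP+ Treg was sequenced from thrombus, vein wall and spleen. Input was 2 ng of RNA, amplified as cDNA over 12 cycles, of which 1 ng entered tagmentation libraries, per the labels' protocols, so rare transcripts can be lost or overcounted. The deposited files give, per the file headers, counts of total and unique exon reads, junction reads, intron reads and exon length in bases per gene. The genome build was GRCm38 (submitters' processing notes). The sources used here name neither aligner nor counter. Deposited RPKM values were not used, and reads per kilobase were computed from the counts.

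Sets 1 and 3 were joined on gene identifiers (21899 genes) and set 2 on names, older names and synonyms with matching position, giving 20850 genes that hold 92.2% to 96.3% of exon reads. Tests used edgeR 4.0.16, run in R 4.3.3, on total exon counts (TMM, default filter on low counts, robust quasi-likelihood F tests, tissue as the only factor, all 10 samples in 1 fit, two-sided, Benjamini-Hochberg, threshold 0.05). The fit was tested on simulated data. Alternatives were DESeq2 1.42.0, no filter, unique reads, 12 separate libraries with and without a replicate block, the set of files as covariate, each sample left out, and, for summed levels, no TMM factors. Intervals on shares are Wilson intervals at 95%, and those on pooled ratios are exact.

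The members and marker lists were chosen with earlier results of these data known. Genes named are the 10 members, list genes called in a comparison, the 3 highest of the erythroid, heme synthesis and platelet lists, the 5 most like the globins and the 5 most like Pf4, and genes that overlap a member. Other list genes, given as defining markers or as parts of a list sum, were chosen after their values were seen.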

Additional observations from a re-analysis of the deposited data

Results flagged for a closer look

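Among the 4 thrombus samples, a single sample stood far from the other 3 in 4 of 12 measures screened. Chance gives such a gap in about 1 of 20 groups of normally distributed values, a rate that does not carry over to skewed levels such as these or to overlapping measures. Thrombus 4 was the high one for Hbb-bt, with 129 CPM, and for Alas2, with 1.30 CPM, from 14 reads of which none is unique, the other 3 samples being at 0. Thrombus 2 was the high one for Pf4, with 46.8 CPM, and for the 5 platelet genes summed, with 50.1 CPM, most of which is Pf4.

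Intron reads, which the comparisons between tissues do not use, exceeded the highest spleen level, scaled by library size, in several libraries. Hbb-bs had 65 and Hbb-bt 22 intron reads in thrombus 4, and Hba-a2 had 5 in thrombus 3. Ppbp had 4 intron reads in vein wall 3 and 17 in vein wall 4, the near-duplicate pair. Itga2b had 11, 18 and 4 intron reads in thrombus 1, 3 and 4, and 6 and 8 in vein wall 3 and 4. What these reads come from was not tested.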

How the results depend on the processing

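No member was called in the fit reported here or under any of 16 alternatives, and the lowest adjusted p was 0.107, for Pf4 in thrombus against spleen with DESeq2. Of 321 member fold changes under alternatives, 301 kept their direction, and 12 of the 21 results had no reversal, among them the 4 globin genes in vein wall against spleen and in thrombus against vein wall, and Pf4 and Itga2b in both thrombus comparisons.

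Reversals in log2 fold change were -0.025 for Hba-a2 in thrombus against spleen with unique reads, 0.24 for Hbb-bt in thrombus against spleen and 0.42 for Itga2b in vein wall against spleen, both with the set of files as covariate. Leaving out 1 sample gave, in thrombus against spleen, -1.19 to 2.55 for Hba-a1, -0.59 to 2.04 for Hba-a2, -0.78 to 2.25 for Hbb-bs, -3.05 to 1.06 for Hbb-bt and -0.88 to 7.80 for Ppbp. In vein wall against spleen it gave -0.58 to 1.28 for Pf4, -1.64 to 8.65 for Ppbp and -2.08 to 1.64 for Itga2b, and in thrombus against vein wall -1.78 to 1.67 for Ppbp. The cause of these was not tested.

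Genes called over all genes numbered 17 in thrombus against spleen, 13 in vein wall against spleen and 0 in thrombus against vein wall. DESeq2 called 146, 193 and 50, no filter 80, 66 and 2, and 12 separate libraries 35 and 51 in the first and second of these comparisons. The replicate block on 12 libraries called 52 and 67, and the set of files as covariate 53 and 48. Unique reads called 7 in vein wall against spleen. Without spleen 1 the calls were 34 and 28, without spleen 2 they were 6 and 5, and without spleen 3-4 they were 8 and 6, so that leaving out 1 sample gave 6 to 34, 5 to 28 and 0 to 1, the single call being without thrombus 2. All main calls were higher, while DESeq2 split 111 higher and 82 lower in vein wall against spleen. The median log2 fold change of all genes tested was 0.23 in thrombus against spleen and 0.20 in thrombus against vein wall with DESeq2, and 0.16 and 0.12 with edgeR and no filter; these fits test more genes, and scaling alone was not varied. Leaving samples out of pooled reads, and Gp1bb out of the platelet sum, were chosen after seeing the data. The labels do not say what a library number shares. Deviations of same-numbered libraries from their tissue means correlated at -0.06 to 0.39, every value within a set of files being above every value between sets, and several libraries correlated best with another number, so the numbers were not taken as pairs. Counted by unique reads, the globin sum was 413 CPM in thrombus 2 and 609 in spleen 1, and the platelet sum 5.72 in spleen 1. With Alas2 at 227 reads or fewer a tissue, Gp9 and Gp1bb at 22 or fewer, and Itga2b at 31 or fewer, depth limits these genes to differences of many fold.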
